A study of Homo sapiens with 6 samples.

Results

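The genes described here encode enzymes that remove methyl groups from lysine 9 of histone H3 (H3K9). The 10 members were chosen by name, with earlier results of these data known: KDM1A, KDM3A, KDM3B, KDM4A, KDM4B, KDM4C, KDM4D, JMJD1C, PHF2 and PHF8. All 10 were measured, each by 1 row of the array, out of 18404 genes that had a row with exactly 1 gene symbol. RNA came from BE(2)-C, an established human neuroblastoma cell line with amplified MYCN, kept in medium with dialyzed serum. One group of 3 samples was kept for 24 h in 5 µM BIX01294 and the other group of 3 samples for 24 h in 0.05% DMSO, the usual solvent. Whether the treated samples also held DMSO is not stated in the labels. The series text calls the samples independent and names no separate passages, so p-values measure the spread between these samples. Each sample was hybridised to 1 Affymetrix array, and expression values are given as log2.

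BIX01294 inhibits the methyltransferases encoded by EHMT2 and EHMT1, which place mono- and dimethyl marks on H3K9. Demethylases take such marks off, and they fall into separate chemical classes. KDM1A, also called LSD1, oxidises the methylated lysine with a flavin (FAD) as cofactor and works inside a complex built on the CoREST scaffold with histone deacetylases. The other members carry a Jumonji C (JmjC) domain, which in active enzymes needs iron, oxygen and 2-oxoglutarate. KDM4 enzymes act on di- and trimethylated H3K9, the KDM3 group on mono- and dimethylated H3K9, and PHF8 and PHF2 join a JmjC domain to a PHD finger that binds methylated H3K4. The arrays address whether transcripts of these opposing enzymes differ between BIX01294 and DMSO samples, and they do not measure the inhibition itself.

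Transcripts of 4 of the 10 demethylases fell after BIX01294 and none rose. KDM4A fell 2.01-fold, KDM3B 1.30-fold, KDM4B 1.18-fold and KDM3A 1.16-fold, while the other 6 did not pass the test. The test was limma's moderated linear model, two-sided, with Benjamini-Hochberg adjustment over all 18404 genes and a threshold of 0.05. In that fit 23.6% of all genes passed, with 10.7% of all genes lower and 12.9% of all genes higher. In a separate fit of the 9202 genes from the median level up, 1899 passed as lower and 2850 as higher. That fit held 9 members, of which 4 passed as lower. The median log2 change of the 10 members was -0.12, against -0.0059 for all genes, and 9 of the 10 estimates were below 0, as were 51.6% of all genes (the estimate of KDM4D changes sign with the scaling). The 3 DMSO arrays lay above the 3 BIX01294 arrays without overlap in 6 members, a pattern held by 18.7% of all genes, and in 0 members did the treated arrays lie wholly above the controls, a pattern held by 21.4% of all genes. All 10 members lay above the median of all rows on every array, rows without a symbol included. The table gives no detection call. KDM4D did so narrowly (7.05 against 7.01 on DMSO replicate 3), and by mean level 9 of the 10 reached the median of the 18404 genes.

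**Figure D1:**
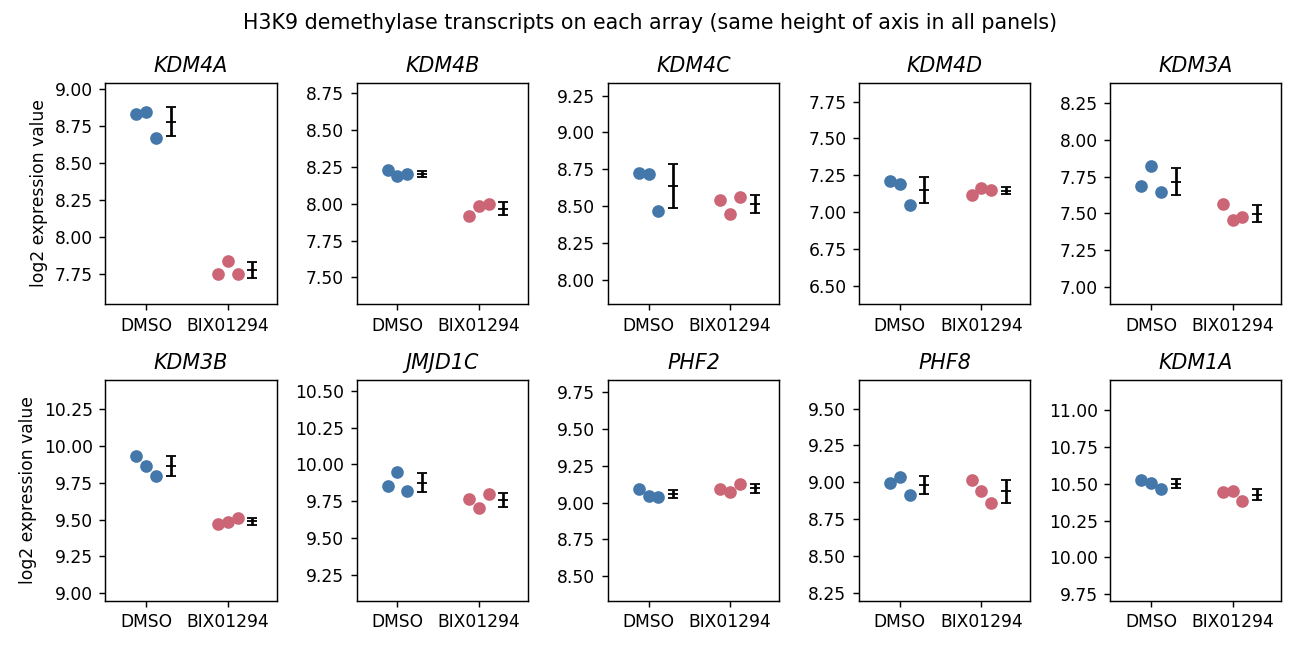
Log2 expression value (y axis, equal height in each panel) of the 10 H3K9 demethylase transcripts on the 3 DMSO arrays and the 3 BIX01294 arrays, replicates 1 to 3 from left to right, with the mean and SD beside them. KDM4A drops from between 8.67 and 8.84 to between 7.74 and 7.84, and KDM3B, KDM4B and KDM3A show smaller gaps between the groups.

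The stretches before the start sites of the 4 genes called lower are shown, together with that of KDM4C, whose transcript did not pass. The short sequence CCAAT stands in those 4 and not before KDM4C, but 1 copy also stands before KDM4D, which did not pass either. This selection was made with the calls and the sequences known, so it is no test of a link between them. CCAAT (or its reverse complement ATTGG) and CACGTG are in capitals. The stretches shown are the 250 bases before the RefSeq start in GRCh38.p14, all on the plus strand. They lie at chr1:43649899-43650148 for KDM4A, chr19:4968863-4969112 for KDM4B, chr2:86441121-86441370 for KDM3A, chr5:138352435-138352684 for KDM3B and chr9:6757723-6757972 for KDM4C.
KDM4A: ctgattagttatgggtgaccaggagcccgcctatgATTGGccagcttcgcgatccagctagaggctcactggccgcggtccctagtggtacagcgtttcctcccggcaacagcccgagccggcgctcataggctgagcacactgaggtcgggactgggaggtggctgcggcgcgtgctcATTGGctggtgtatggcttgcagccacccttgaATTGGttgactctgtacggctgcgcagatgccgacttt
KDM4B: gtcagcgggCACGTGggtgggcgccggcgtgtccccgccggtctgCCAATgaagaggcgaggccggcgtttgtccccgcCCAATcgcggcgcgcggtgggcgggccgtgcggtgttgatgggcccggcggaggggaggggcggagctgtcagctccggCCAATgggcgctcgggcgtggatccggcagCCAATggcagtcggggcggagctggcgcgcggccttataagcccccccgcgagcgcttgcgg
KDM3A: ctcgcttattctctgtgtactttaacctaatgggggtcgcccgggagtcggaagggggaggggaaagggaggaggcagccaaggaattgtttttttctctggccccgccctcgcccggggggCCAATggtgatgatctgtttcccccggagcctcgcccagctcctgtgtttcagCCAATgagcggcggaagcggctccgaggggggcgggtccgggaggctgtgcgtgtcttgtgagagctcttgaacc
KDM3B: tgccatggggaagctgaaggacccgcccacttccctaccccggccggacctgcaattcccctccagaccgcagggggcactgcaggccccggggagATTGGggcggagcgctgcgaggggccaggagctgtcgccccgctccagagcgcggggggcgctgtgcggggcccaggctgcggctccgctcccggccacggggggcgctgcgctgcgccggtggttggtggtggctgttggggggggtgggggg
KDM4C: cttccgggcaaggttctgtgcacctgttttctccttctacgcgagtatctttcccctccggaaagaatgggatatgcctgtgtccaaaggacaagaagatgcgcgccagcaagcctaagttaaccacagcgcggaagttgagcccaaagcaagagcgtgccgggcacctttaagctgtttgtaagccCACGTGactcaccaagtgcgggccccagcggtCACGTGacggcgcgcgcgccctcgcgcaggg

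CCAAT is the core of the element bound by the factor NF-Y, and CACGTG is the E-box bound by MYC family proteins. Both were searched on both strands after the sequences had been looked at. CCAAT stood 3 times before KDM4A, 4 times before KDM4B, 2 times before KDM3A and 1 time before KDM3B. The 2 RefSeq windows of KDM3A overlap and hold the same 2 copies. Of all 35116 windows of this length in the table, 32.0% held at least 1 copy, 9.53% at least 2 and 2.93% at least 3. Among the members that did not pass the test, KDM4D held 1 copy and PHF8 1 copy in 1 of its 3 windows, while KDM1A, KDM4C, PHF2 and the 3 windows of JMJD1C held 0. CACGTG stood 2 times before KDM4C, 1 time before KDM4B and 1 time in 1 window of JMJD1C, against 6.34% of all windows with at least 1. These are matches of letters, with no measurement of binding in these data.

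Within the KDM4 subfamily KDM4A and KDM4B fell, and KDM4C and KDM4D did not pass the test. KDM4A, on chromosome 1, reads histone tails through a double Tudor domain and removes methyl groups from H3K9 and H3K36. It measured 8.83, 8.84 and 8.67 on the DMSO arrays and 7.74, 7.84 and 7.74 on the BIX01294 arrays. The lowest control stood 0.83 above the highest treated array, a gap wider than the spread within either group. KDM4A changed by -1.01 ± 0.066 (SE) on the log2 scale, from 8.78 ± 0.097 to 7.77 ± 0.053 (SD, n = 3 per group), with an adjusted p of 6.43e-05 in limma. Its 95% interval ran from -1.16 to -0.85. It had the 63rd lowest log2 change of all 18404 genes, and 67 genes (0.364%) fell at least 2-fold past the threshold. KDM4A passed in all 15 alternatives tried, with log2 changes of -1.06 to -0.97.

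KDM4B, on chromosome 19, has the same domain plan as KDM4A and is induced by hypoxia in many cell types. It read 8.226, 8.185 and 8.203 in DMSO and 7.914, 7.986 and 7.996 in BIX01294. The groups were tight and apart by 0.19, and the fall of -0.24 ± 0.053 (SE) passed with an adjusted p of 0.0130 in limma. Without DMSO replicate 1 KDM4B missed the threshold, its log2 change then being -0.23 (adjusted p 0.0520 in limma), the highest p of a range that began at 0.00154 over its 15 alternatives.

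KDM4C, on chromosome 9, a further demethylase of H3K9 and H3K36, read 8.72, 8.72 and 8.46 in DMSO and 8.54, 8.45 and 8.56 in BIX01294. DMSO replicate 3 lay among the treated arrays, so the groups overlapped. The difference of -0.12 ± 0.081 (SE) did not pass (adjusted p 0.353 in limma), and its 95% interval of -0.31 to 0.067 includes falls larger than that of KDM4B. Without DMSO replicate 3 the difference was -0.21, with an adjusted p of 0.0556 in limma, the lowest of a range that reached 0.633 over its alternatives.

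KDM4D, on chromosome 11, is a short member that lacks the PHD and Tudor domains of the other KDM4 enzymes here and acts on H3K9 but not H3K36. Its DMSO values of 7.21, 7.19 and 7.05 enclosed its BIX01294 values of 7.12, 7.17 and 7.15. The log2 difference was -0.0035 ± 0.062 (SE), with an adjusted p of 0.980 in limma and a 95% interval of -0.15 to 0.14. Its sign turned with quantile normalization and with centring of the arrays, so KDM4D has no direction here.

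A within-array comparison of KDM4A with the mean of KDM4B and KDM4C removed what the arrays share. That difference moved from 0.36 ± 0.028 in DMSO to -0.47 ± 0.078 in BIX01294 (SD, n = 3 per group), a shift of -0.83, with an exact two-sided permutation p of 0.10, the smallest that 3 against 3 arrays can give, and 0.15 adjusted over 3 such comparisons. The shift kept its sign when any single array was left out, between -0.87 and -0.79. This test could not pass a threshold of 0.05 in this design, and the shift is made of the same values as the fall of KDM4A given above.

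**Figure D2:**
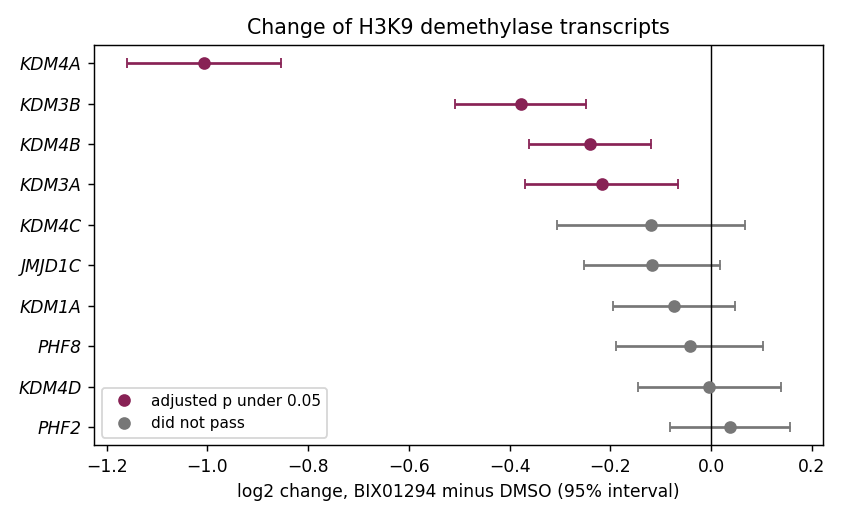
Log2 change (x axis, BIX01294 minus DMSO, 3 arrays per group) of each member with its 95% interval from limma, coloured by whether its adjusted p was under 0.05. KDM4A lies near -1.01, the intervals of KDM3B, KDM4B and KDM3A lie below 0, and the intervals of the other 6 include 0.

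In the KDM3 group both KDM3A and KDM3B passed the test and JMJD1C did not. KDM3B, on chromosome 5, which removes mono- and dimethyl marks from H3K9, read 9.93, 9.87 and 9.80 in DMSO and 9.47, 9.48 and 9.51 in BIX01294. The treated arrays differed among themselves by 0.042 and lay 0.29 below the lowest control. The fall of -0.38 ± 0.057 (SE) had an adjusted p of 0.00236 in limma and passed in all 15 alternatives.

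KDM3A, on chromosome 2, an enzyme of the same specificity that hypoxia induces and that serves androgen receptor targets and spermatogenesis, read 7.68, 7.82 and 7.64 in DMSO. Its BIX01294 arrays read 7.56, 7.45 and 7.48, below every control by a margin of 0.079. The fall of -0.22 ± 0.066 (SE) passed narrowly, with an adjusted p of 0.0465 in limma, and did not hold widely. Leaving out DMSO replicate 1 or 2, or BIX01294 replicate 1, 2 or 3, gave log2 changes of -0.23, -0.17, -0.25, -0.19 and -0.21 and ended the call in each case. Its adjusted p ran from 0.00935 to 0.149 in limma over 15 alternatives, 6 of which called it. The within-array difference KDM3A minus KDM3B shifted by 0.16, from -2.15 ± 0.10 to -1.99 ± 0.074 (SD, n = 3 per group), with an exact two-sided permutation p of 0.10.

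JMJD1C, on chromosome 10, resembles KDM3A and KDM3B in its JmjC domain, though its activity on H3K9 is disputed. It read 9.86, 9.95 and 9.82 in DMSO and 9.77, 9.70 and 9.80 in BIX01294. The groups lay apart by only 0.021, and the difference of -0.12 ± 0.059 (SE) did not pass (adjusted p 0.202 in limma; 95% interval -0.25 to 0.018). With quantile normalization the value was -0.17 (adjusted p 0.0424 in limma), the lowest p of a range up to 0.462 and the only alternative of 15 in which JMJD1C was called.

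The PHD finger demethylases gave no call. PHF8, on the X chromosome, removes methyl marks from H3K9 and H4K20 at active promoters, and its loss causes an inherited intellectual disability. It read 8.997, 9.033 and 8.914 in DMSO and 9.017, 8.939 and 8.860 in BIX01294, overlapping, with a difference of -0.043 ± 0.063 (SE; adjusted p 0.693 in limma; 95% interval -0.19 to 0.10). PHF2, on chromosome 9, works with the DNA-binding protein ARID5B after phosphorylation by protein kinase A. It read 9.09, 9.05 and 9.04 in DMSO and 9.09, 9.07 and 9.13 in BIX01294, a difference of 0.037 ± 0.052 (SE; adjusted p 0.676 in limma), and was the single member with a positive estimate. The 95% interval for PHF2, -0.082 to 0.16, contains no fall as large as that of KDM3A, KDM3B, KDM4A or KDM4B. PHF2 minus PHF8 within arrays shifted by 0.080, with an exact two-sided permutation p of 0.40.

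KDM1A, on chromosome 1, the flavin-dependent enzyme, removes mono- and dimethyl marks from H3K4 and, with some partners, from H3K9. It read 10.53, 10.51 and 10.47 in DMSO and 10.44, 10.45 and 10.39 in BIX01294. The treated arrays were all below the controls, but by 0.014 only. The difference of -0.073 ± 0.053 (SE) did not pass (adjusted p 0.381 in limma), and the 95% interval of -0.19 to 0.048 does not reach the -0.24 measured for KDM4B. None of the 15 alternatives called KDM1A.

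Among the controls, DMSO replicate 3 held the lowest value of its group in 9 of the 10 members, KDM4B being the exception, whereas 45.5% of all genes were lowest there. The mean over the 10 members ran from 8.81 to 8.92 on the DMSO arrays and from 8.65 to 8.67 on the BIX01294 arrays. Without DMSO replicate 3 the same number of members, 4, passed as lower, and without DMSO replicate 1 only 2 did (KDM4A and KDM3B). Over all 18404 genes 1818 passed as lower without DMSO replicate 3 and 1318 without DMSO replicate 1, against 1970 with all arrays.

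**Figure D3:**
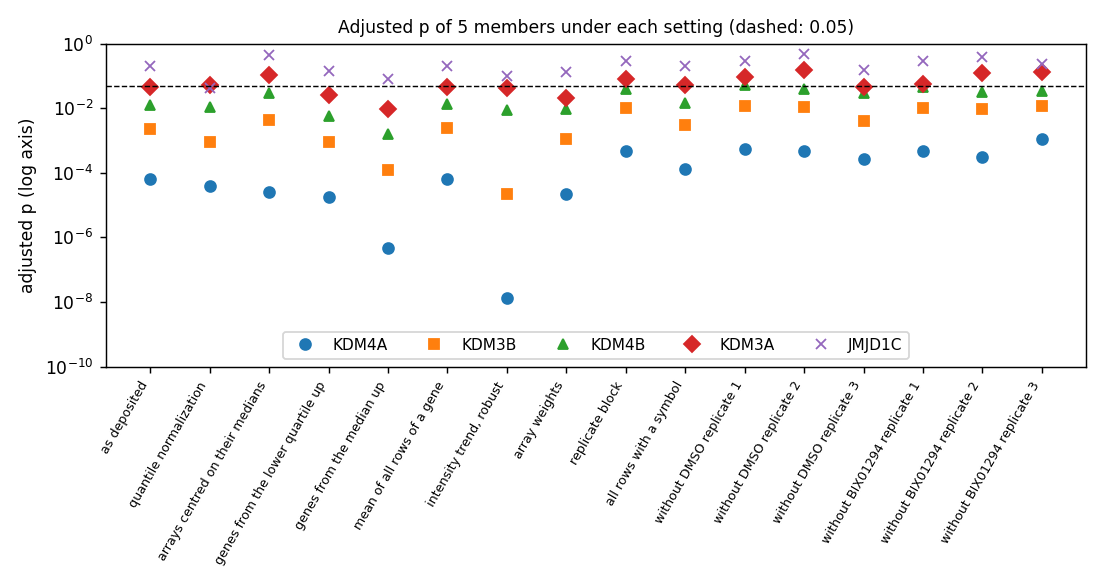
Adjusted p from limma (y axis, log scale) of KDM4A, KDM3B, KDM4B, KDM3A and JMJD1C in the deposited values and under each of 15 alternatives (x axis). The points of KDM4A and KDM3B stay below the dashed line at 0.05 throughout, KDM4B crosses it without DMSO replicate 1, KDM3A lies on both sides of it, and JMJD1C is below it with quantile normalization alone.

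The related lists place the demethylases beside the genes they work with. The 10.7% of all genes lower and 12.9% higher are the background for the lists' counts, but that share includes dim genes. In the fit of the 9202 genes from the median level up, 1899 were lower and 2850 higher. It held 15 LSD1 partners, 9 of them lower and 1 higher. The lists were written with earlier results of these data known, so these counts are no independent test. Partners of the LSD1 complex fell in 9 of 17 measured genes and rose in 0, although KDM1A itself did not pass. SNAI1, a repressor that recruits the complex, fell by 0.62 on the log2 scale, the HMG-box subunit HMG20B by 0.51, the H3K4-reading subunit PHF21A by 0.43 and GSE1 by 0.42. The deacetylase HDAC1 fell by 0.37, and its paralog HDAC2 differed by 0.069 ± 0.061 (SE, adjusted p 0.480 in limma). SNAI2, a paralog of SNAI1, differed by 0.21 ± 0.076 (SE, adjusted p 0.0858 in limma), its treated arrays all above the controls. HDAC1, HDAC2 and SNAI2 were named after their values were seen. The list's median was -0.20, and 7 of its genes were lower with centred arrays and 6 to 9 when single arrays were left out. Over all genes 1536 were lower with centred arrays and 1318 to 1818 when single arrays were left out, against 1970 as deposited.

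Other JmjC proteins went both ways, 6 of 19 lower and 6 higher, with a median of -0.10. The largest fall was that of KDM5B, an eraser of H3K4 methylation, from 9.88 ± 0.091 to 8.58 ± 0.034 (SD, n = 3 per group), or 2.47-fold. KDM7A, which is also able to demethylate H3K9 but is not one of the 10 members, fell 1.73-fold, and JARID2, a partner of the Polycomb complex without demethylase activity, fell 1.40-fold. JMJD4, a hydroxylase of a translation termination factor, rose 1.37-fold. Named after its value was seen, the H3K27 demethylase KDM6B fell 1.33-fold. The ribosomal oxygenases RIOX1 and RIOX2, also named after their values were seen, each rose 1.29-fold. The highest adjusted p among these 7 genes in limma was 0.00406, that of KDM6B.

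On the opposing side, H3K9 methyltransferases, HP1 proteins and their partners counted 3 of 19 higher and 2 lower, with a median of 0.048. ATF7IP, the cofactor that stabilises SETDB1, fell by 0.58 and SETDB1 by 0.51 on the log2 scale, while UHRF1 rose by 0.46 and SUV39H1 by 0.41, and a dimmer row of UHRF1 differed by -0.086. With the mean of both rows UHRF1 differed by 0.19 and did not pass (adjusted p 0.0671 in limma; 5.03e-07 to 0.0671 over its alternatives). Transcripts of the enzymes that BIX01294 inhibits did not pass: EHMT2 differed by 0.00037 ± 0.057 (SE) and EHMT1 by 0.11 ± 0.059 (SE), with adjusted p of 0.998 and 0.226 in limma.

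Enzymes that make or use 2-oxoglutarate, its competitors and FAD gave 3 of 16 measured genes higher and 3 lower, with a median of 0.0012. PSAT1, which forms 2-oxoglutarate during serine synthesis, fell by 0.91 and the aspartate aminotransferase GOT1 by 0.55 on the log2 scale, while IDH3A, a subunit of the isocitrate dehydrogenase of the citric acid cycle, rose by 0.44 and OGDH by 0.40. Hypoxia-induced genes, a list chosen because KDM3A and KDM4B belong to that response in other cells, counted 4 of 17 higher and 4 lower, with a median of 0.15. The mitophagy receptor BNIP3L fell by 1.11, VEGFA by 0.73, the MYC antagonist MXI1 by 0.47 and PDK1 by 0.29 on the log2 scale. PDK1 lost its call without DMSO replicate 1 (-0.27, adjusted p 0.0586 in limma) and without DMSO replicate 2 (-0.27, adjusted p 0.0543 in limma), in a range from 0.00184 over its alternatives. Among the rises, which were smaller and were named after their values were seen, the glycolytic regulator PFKFB4 differed by 0.28 and the glucose transporter SLC2A1 by 0.24. Without BIX01294 replicate 3 the hypoxia list held 2 rises, and 1699 genes rose over all genes, against 2379 with all arrays.

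**Figure D4:**
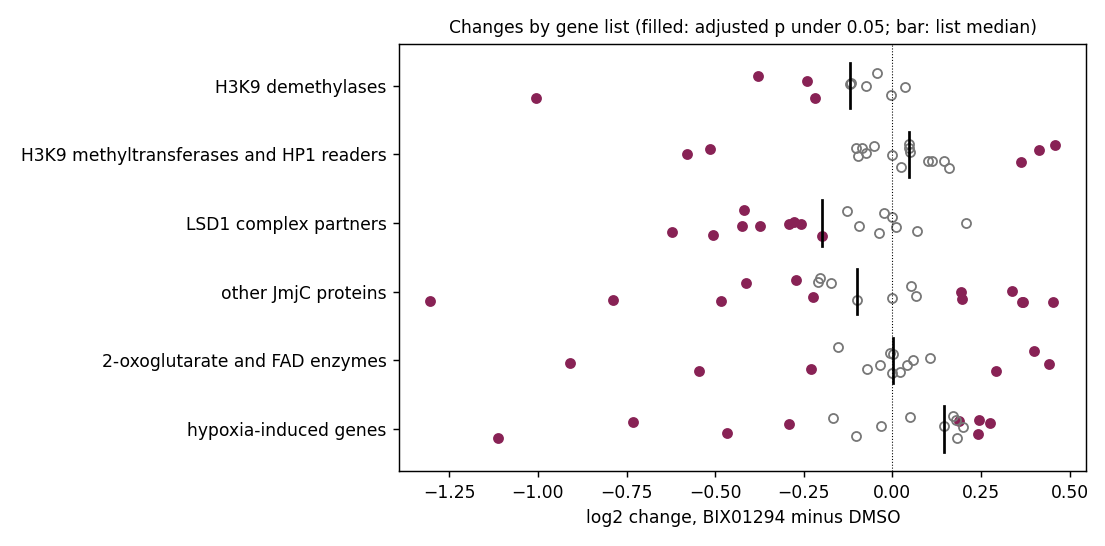
Log2 change (x axis, BIX01294 minus DMSO, 3 arrays per group) of every measured gene in the demethylase list and the 5 related lists (y axis, points spread vertically for sight only). Filled points had an adjusted p under 0.05 in limma, bars mark list medians, and filled points of the LSD1 partners lie on the lower side alone.

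The cell line's markers were checked as well. All 10 measured sympathoadrenal markers lay above the median of all rows on every array. MYCN lay at 13.54 ± 0.041 in DMSO and 13.46 ± 0.025 in BIX01294 (SD, n = 3 per group). Of these markers 3 rose and 3 fell, but 0 fell without DMSO replicate 1, without DMSO replicate 2 or without BIX01294 replicate 3, and 1 fell with centred arrays or without BIX01294 replicate 1. Over all genes those settings left 1318, 1384, 1319, 1536 and 1514 lower, in that order, against 1970 as deposited. Of 12 measured genes marking mesenchymal or Schwann cell-like cells, which neuroblastoma cultures may also contain, 3 rose, among them VIM and CD44, and 3 fell, among them DCN and LUM. The mean level of this list was 8.04 to 8.09 on the DMSO arrays and 8.01 to 8.07 on the BIX01294 arrays. In this list 7 genes lay above the median of all rows on every array, and its part in the demethylase changes was not tested. In such bulk RNA fewer cells of a kind and less RNA per cell cannot be told apart.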

How the data were processed

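Total RNA was labelled and hybridised to Affymetrix arrays, per the labels. The deposited values of the authors were taken as log2 because they lie between 1.93 and 14.93, with medians per array from 6.94 to 7.01. The submitters' processing notes name Partek. Background correction and normalization: not given in the sources used here. If the arrays had been scaled to each other, a shift common to most genes would be hidden. Precision is limited by the number of arrays.

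Exactly 1 symbol was given for 19158 of 32321 rows. Symbols were updated through RefSeq identifiers for 19128 of them, and the row with the highest mean was kept per gene (18404 genes). The deposited values went into limma 3.58.1 (R 4.3.3), with treatment as the only term and no filter. The fit was checked on simulated data. Intervals use the moderated standard error. Arrays of a group agreed to the last deposited digit in 23 to 40 rows, so none was a copy of another. The paralog differences used exact permutation over the 6 arrays.

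Members and lists were chosen with earlier results of these data known. The named genes are the 10 members, EHMT1 and EHMT2, up to 4 called genes per related list with the largest absolute change, and the markers; others are said to be named after their values were seen. Sequences are those of RefSeq, and all 10 members matched. The alternatives were quantile normalization, centring, 2 filters on dim genes, the mean of a gene's rows, robust estimation with an intensity trend, weights per array, a replicate block, every row that has a symbol, and leaving out each array.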

Additional observations from a re-analysis of the deposited data

How the results depend on the processing

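KDM4A and KDM3B kept their direction and their call in limma in all 15 alternatives. KDM3A changed by -0.20 with quantile normalization, by -0.18 with centred arrays and by -0.22 with all rows that have a symbol, and lost its call in each (adjusted p 0.0543, 0.106 and 0.0524 in limma); leaving out arrays gave -0.25 to -0.17. KDM4B lost its call in 1 alternative, with -0.26 to -0.21 over the arrays left out. KDM4D turned to 0.027 with quantile normalization and to 0.030 with centring, and ran from -0.055 to 0.026 when arrays were left out. The filter at the median of all genes removed KDM4D. JMJD1C passed with quantile normalization at -0.17. The members called lower were 2 to 4 when arrays were left out, and 3 with centring. Over all 18404 genes 1318 to 1818 were lower when arrays were left out, and 1536 with centring, against 1970 as deposited.

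The replicate numbers are shared by both groups, but the labels do not say that they mark a shared culture. Deviations of same-numbered arrays correlated at 0.20, -0.17 and 0.048, so the numbers were not taken as pairs. With the replicate block 3 members were lower, KDM3A at -0.22 losing its call (adjusted p 0.0820 in limma, within 0.00935 to 0.149 over its alternatives), and 1987 genes were higher and 1654 lower over all genes, against 2379 and 1970 without it. The block left 7 LSD1 partners and 1 sympathoadrenal marker lower.

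With the filter at the median, 2850 of 9202 genes were higher. In the related lists 5 of 16 methyltransferase and reader genes, 1 of 15 LSD1 partners and 7 of 13 hypoxia genes then rose. The filter at the lower quartile gave 7 rises among 17 hypoxia genes, against 2712 of 13803 genes. The intensity trend gave 1 rise among 17 LSD1 partners, against 2991 of 18404 genes. Leaving out arrays gave 0 to 1 rises of LSD1 partners and 2 to 4 of hypoxia genes, against 1699 to 1910 over all genes. Of genes called, 54.7% were higher as deposited, 49.7% after quantile normalization and 64.3% after centring. The cause of these shifts was not tested. Each filter reduced the genes adjusted over, and the model was fitted anew to the genes kept, which also changed the moderated standard errors. With 3 arrays per group and no detection calls, small changes could be missed.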
